A study of Mus musculus with 12 samples.

Results

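The 6 kidneys described here came from sham (saline) mice, the controls of a study of rhabdomyolysis-induced acute kidney injury (RIAKI), and were taken by their label from 12 libraries in all. The 6 rhabdomyolysis libraries were not used. Drinking water was withheld from the mice for 19 h, saline was then injected into the left hind limb under isoflurane, and the analgesic Rimadyl (carprofen) was given at 5 mg/kg at 0 and 3 h. Kidneys were removed at 24 h, 1 library per mouse, and the study's methods describe male C57BL/6NCrl mice, labelled wild type. These control kidneys had thus been through water restriction, anaesthesia and a nonsteroidal analgesic, and no unhandled kidney was compared with them. Genes were ranked by reads per 1000000 exon reads (RPM), with the mitochondrial ribosomal RNAs mt-Rnr1 and mt-Rnr2 left out of the ranking and of the total.

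The kidney filters blood in the glomerulus and recovers most of the filtrate along the nephron. The proximal tubule (PT) takes back glucose, amino acids, phosphate and bicarbonate and runs largely on mitochondrial oxidation. The thick ascending limb (TAL), distal convoluted tubule (DCT), connecting tubule (CNT) and collecting duct (CD) adjust salt, calcium, acid and water.

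Total exon reads per library were 1673329 to 2073959, of which mt-Rnr1 and mt-Rnr2 took 36.6% to 52.7%, so that 808365 to 1315209 reads were left. A single read was then worth 0.760 to 1.24 RPM, and a gene with no read in a library could hold up to 3 reads there, that is 2.28 to 3.71 RPM, by counting error alone. The libraries of mice 1 and 2 stood apart from the other 4. Introns held 9.67% of their gene reads, against 7.39% to 7.86% in mice 3 to 6, and 14.2% to 14.3% of their exon reads crossed an exon junction, against 16.7% to 18.6%. The labels give no batch, so results on the spread between mice are given with and without these libraries. In whole-kidney RNA, fewer cells of a type and less RNA per cell cannot be told apart.

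Reads were concentrated in few genes. Of 41740 genes listed, 17899 had a read in at least 1 sham kidney and 10923 in each of the 6. A mean of at least 1 RPM was reached by 13007 genes, at least 10 RPM by 6901, at least 100 RPM by 1325 and at least 1000 RPM by 121. The 10 highest genes held 23.5% of the reads, the 100 highest held 45.2%, and 150 genes held 50% of them. The order within the top of the list was loose. Of the 29 pairs of neighbours among the 30 highest genes, 1 kept its order in 6 of 6 mice, 8 in 5 mice and 20 in 4 or fewer.

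**Figure D1:**
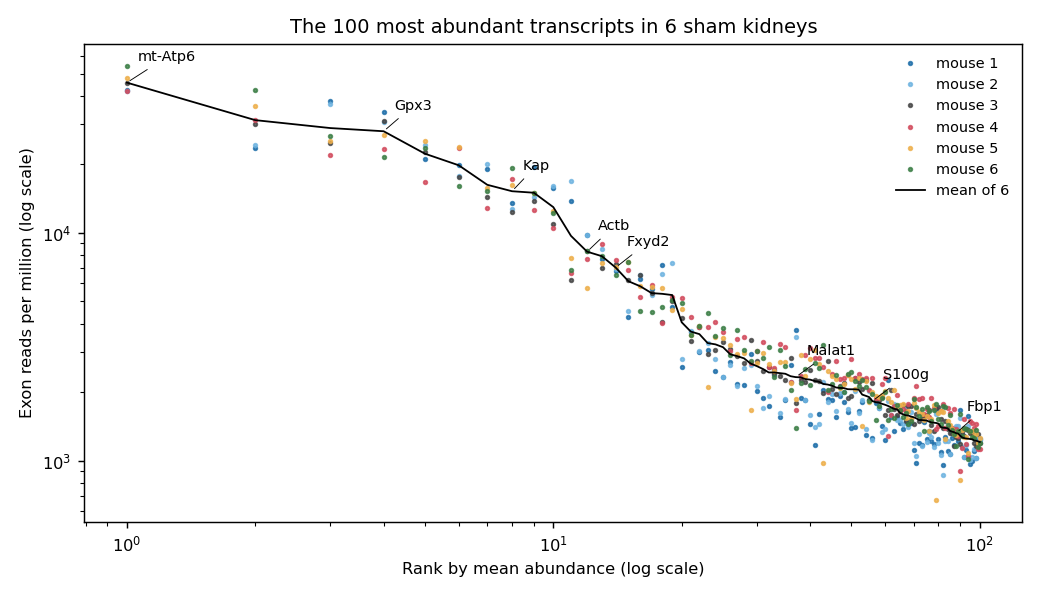
Exon RPM (log scale) of the 100 highest genes against their rank (log scale), with 1 point per mouse and a line through the mean of 6 sham kidneys. Points of neighbouring ranks overlap along most of the curve, and mice 1 and 2 (blue) lie together above or below the other 4 at many genes.

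The transcripts of the mitochondrial genome led the list. The 13 mRNAs it encodes, subunits of the respiratory chain and of ATP synthase, made up 16.8% to 21.1% of the reads. Mt-Atp6, a subunit of ATP synthase, was first of all genes with 42394, 41825, 45604, 42202, 47941 and 54223 RPM in mice 1 to 6. The complex III subunit gene mt-Cytb had 37973, 36693, 24762, 21976, 25265 and 26526 RPM in mice 1 to 6. Mice 1 and 2 were the highest for mt-Cytb and among the lowest 3 for mt-Atp6, so the mitochondrial mRNAs did not shift together. Mt-Co3 was likewise lowest in mice 1 and 2, with 23510.3, 24347, 30076, 31246, 36246 and 42228 RPM in mice 1 to 6, whereas mt-Co1 was highest there, with 13766, 16948, 6192, 6669, 7774 and 6875 RPM in mice 1 to 6. All 13 varied beyond counting noise, the Poisson spread that counting alone gives, as did 24.8% of all tested genes. Among tested genes at 1000 RPM or more, 117 of 121 did. Of the 13, mt-Co1 and mt-Nd6 also varied beyond the dispersion trend, the spread usual for genes of their abundance, as did 1.81% of all tested genes. Neither was called when mice 1 and 2 were given a term of their own in the fit, and mt-Co1 was not called without mouse 2 (edgeR adjusted p = 0.38) or without mouse 3 (edgeR adjusted p = 0.15).

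Gpx3 was the highest nuclear gene. It encodes the secreted glutathione peroxidase, for whose plasma pool the PT is the main source. Its transcript stood at 33982, 30754, 31043, 23444, 26946 and 21539 RPM in mice 1 to 6, about level with mt-Cytb and far above the cytosolic enzyme gene Gpx1 at 5334 ± 1026 RPM (SD, n = 6, as for all such values below). Kap, the androgen-regulated kidney protein of the mouse PT, had 13596, 12727, 12292, 17234, 16274 and 19329 RPM in mice 1 to 6, and mice 4 to 6 were each above mice 1 to 3. Sod1, cytosolic superoxide dismutase, had 7682, 8458, 7004, 8953, 7390.5 and 7922 RPM in mice 1 to 6. Fxyd2, the gamma subunit of the sodium pump, was among the steadier of the abundant genes, with 6771, 6972, 7266, 7640.1, 7055 and 6566 RPM in mice 1 to 6. Actb, cytoplasmic actin, had 8272 ± 1525 RPM, and Slc25a5, an ADP/ATP carrier of the inner mitochondrial membrane, had 5825 ± 807 RPM.

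Gm42418, annotated as a long noncoding gene, stood at 19813 ± 3288 RPM, and the origin of its reads was not tested. Others of the 30 highest were uncertain in identity. In all, 0.201% of the reads of Gm10053, at 3239.7 RPM, mapped to a single place, and 47.6% of those of the ferritin light chain gene Ftl1, at 5441 RPM, so their reads may belong to near-identical copies. Selenop, the plasma selenium carrier, had 3284 ± 809 RPM and overlaps Ccdc152, with which it may share reads. The remaining nuclear genes of the 30 were Rpl41, Ubb, Prdx1, Cox6c, Fth1, Ndufa4, Cycs, Gatm and Cox7a2, at means of 2601 to 4050.1 RPM. They encode a ribosomal protein, ubiquitin, a peroxiredoxin, the ferritin heavy chain, respiratory chain components and the enzyme that starts creatine synthesis.

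The stretches before the start of 3 of these genes are shown because these genes are among the 10 highest nuclear ones. They are from RefSeq on GRCm38.p6, are written in the gene's own direction, and end before the gene's start both in RefSeq and in the deposited files. Capitals mark a match on either strand to TATAAA, the TATA box, to GTTAAT, part of an HNF1 site, or to CAAAGTC, part of an HNF4A site. These words do not overlap in the stretches shown.
Kap, chr6:133853763-133853917, minus strand: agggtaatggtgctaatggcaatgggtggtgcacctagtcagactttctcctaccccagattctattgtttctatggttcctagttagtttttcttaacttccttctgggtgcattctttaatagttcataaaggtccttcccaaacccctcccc
Sod1, chr16:90220512-90220753, plus strand: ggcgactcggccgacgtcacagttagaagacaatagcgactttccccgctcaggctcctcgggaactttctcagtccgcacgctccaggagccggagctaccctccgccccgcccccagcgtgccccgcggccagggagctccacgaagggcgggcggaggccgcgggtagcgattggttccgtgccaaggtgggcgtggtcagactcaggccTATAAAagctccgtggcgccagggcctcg
Slc25a5, chrX:36795347-36795596, plus strand: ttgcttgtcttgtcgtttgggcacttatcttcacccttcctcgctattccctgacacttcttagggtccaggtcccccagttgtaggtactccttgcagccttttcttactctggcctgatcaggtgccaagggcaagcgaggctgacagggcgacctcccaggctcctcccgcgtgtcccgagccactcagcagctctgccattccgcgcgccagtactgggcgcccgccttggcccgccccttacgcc
The Sod1 stretch held TATAAA, which began 37 bases before the RefSeq start. The Kap stretch was shorter, 155 bases, because the deposited gene starts further upstream than the RefSeq one, and neither it nor the Slc25a5 stretch held any of the 3 words. Over 250 bases before the start, TATAAA occurred in 12.4% of 32851 RefSeq promoters and in 13.8% of the 94 promoters found for 79 of the 100 highest nuclear genes. GTTAAT occurred in 6.43% and 6.38% of these, and CAAAGTC in 3.84% and 5.32%. A match is a description of letters and not a bound site.

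Markers of each nephron segment were read, with those of the PT and CNT summing highest among the tubule lists. The 12 markers of PT segments S1 and S2 summed to 4825 ± 712 RPM and the 5 of S3 to 1401 ± 169.8 RPM. The 8 TAL markers summed to 1496 ± 188 RPM and the 3 DCT markers to 105 ± 29 RPM. The 5 CNT markers summed to 3031 ± 395 RPM and the 8 principal cell markers to 621 ± 83.8 RPM. Calb1, a member of the CNT list, encodes calbindin, which the study uses to mark both DCT and CNT. The CNT list is thus not particular to that segment. These sums rank lists and not cell numbers, since a single abundant gene can carry a list.

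Gatm, the arginine:glycine amidinotransferase of creatine synthesis, carried the S1 and S2 list with 2938, 2618, 3395, 2675, 1666 and 2728 RPM in mice 1 to 6, lowest in mouse 5. Slc34a1, the main renal sodium-phosphate cotransporter, had 866, 899, 649.7, 626, 669 and 626 RPM in mice 1 to 6, with mice 1 and 2 above the other 4. Slc4a4, the basolateral sodium bicarbonate cotransporter, had 417 ± 64.3 RPM. Of the S3 markers, Acy3, an aminoacylase, had 627 ± 124 RPM and Slc7a13, an amino acid transporter, 579 ± 54 RPM. The endocytic receptor gene Lrp2 (megalin) had 171 ± 13.8 RPM, and its partner Cubn 30.6 ± 4.46 RPM.

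In the TAL, Umod, which encodes uromodulin, had 626, 601, 427, 396, 384 and 348 RPM in mice 1 to 6. Slc12a1 (NKCC2), the salt entry pathway of this segment, had 193 ± 32.7 RPM and Egf 207 ± 20.7 RPM. Cldn19, a tight junction gene of paracellular magnesium and calcium transport, had 44.7, 38, 18.1, 7.42, 16.4 and 26.4 RPM in mice 1 to 6, the 1 TAL marker of 8 tested beyond the dispersion trend, against 1.81% of all tested genes, and it was not called with mice 1 and 2 as a term or without any 1 of mice 1, 2, 4 and 5. The macula densa markers Nos1 and Pappa2 were at 0 to 0.994 RPM and Ptgs2 had no read in any library, so this small cell group was not detectable at this depth.

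Slc12a3 (NCC), the salt entry pathway of the DCT, had 117, 84.4, 55.1, 54.4, 52.4 and 58.3 RPM in mice 1 to 6, with mice 1 and 2 above the other 4. The CNT list was led by S100g (calbindin-D9k), with 1263, 1228, 2197, 2307, 2007 and 1954 RPM in mice 1 to 6, and here mice 1 and 2 were below the other 4. Calb1 (calbindin-D28k) was steadier at 476 ± 27.7 RPM. In principal cells, the vasopressin-regulated water channel gene Aqp2 had 369, 230.4, 231, 276, 359 and 187 RPM in mice 1 to 6 and the basolateral Aqp3 186, 176, 169.7, 103, 65.5 and 195 RPM in mice 1 to 6. Both are principal cell genes, yet mouse 5 was second highest for Aqp2 and lowest for Aqp3. The intercalated cell list was carried by the proton pump subunit gene Atp6v1g3 at 157 ± 22.5 RPM, and the transporters of type A and type B cells were low, Slc4a1 at 3.77 ± 1.02 RPM and Slc26a4 (pendrin) at 8.37 ± 2.88 RPM.

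Outside the tubule, podocyte markers summed to 131 to 228 RPM, led by Clic5 at 93.9 ± 29.4 RPM with Nphs1 (nephrin) at 20.2 ± 7.42 RPM. Endothelial markers summed to 188 to 254 RPM, fibroblast markers to 115 to 189 RPM and macrophage markers to 54 to 84.7 RPM. Renin, from Ren1, stood at 44 ± 9.33 RPM. Markers of T and NK cells summed to 0 to 4.37 RPM, those of B cells to 0 to 1.24 RPM and those of neutrophils to 2.47 to 4.97 RPM, at or near the value of a few reads. Red cell markers were far from 0 at 4700.1, 6007, 6961, 7751, 9184 and 7295 RPM in mice 1 to 6, lowest in mice 1 and 2. With uniquely mapped reads their mean was 3601 RPM, against 6983 RPM with all exon reads, and 41.2% to 56.7% of the reads of the 4 globin genes mapped to a single place. Adrenal cortex markers were nearly absent, with Cyp11b1, Cyp11b2 and Cyp11a1 at no read, and so were those of skeletal muscle, with 4 of 5 at no read.

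**Figure D2:**
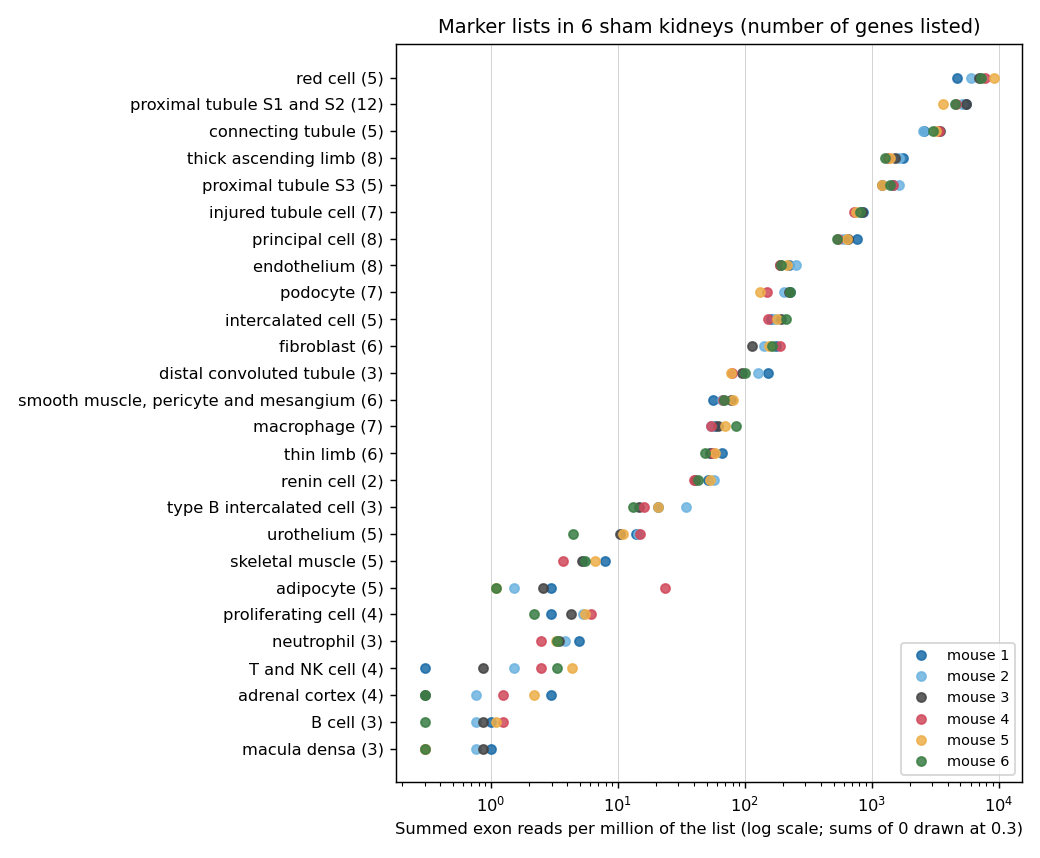
Summed exon RPM (log scale) of 26 marker lists, with 1 point per mouse and the number of genes listed in parentheses. Lists of PT, TAL, CNT and red cells lie above 1000 RPM in each mouse, those of lymphocytes at or under 5 RPM, and the adipocyte list has mouse 4 apart at 23.5 RPM.

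Tubule injury markers had a measurable level in these controls. Spp1 (osteopontin), which distal segments also make without injury, had 626 ± 50.2 RPM and Clu (clusterin) 107 ± 25.7 RPM. Havcr1 (KIM-1) had 31.8, 31.9, 43.9, 43.3, 36 and 29.7 RPM in mice 1 to 6 and Lcn2 (NGAL) 8.94, 9.12, 15.5, 7.42, 16.4 and 16.5 RPM in mice 1 to 6. Both were read in each of the 6 mice, and variation beyond counting noise was not detected for either at this depth. Proliferation markers summed to 2.2 to 6.19 RPM.

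Sodium transport genes summed to 10486 ± 441 RPM, most of it Fxyd2. Atp1b1, the beta subunit of the sodium pump, stood at 1562 ± 104 RPM. Apical entry genes were lower, and the 3 subunits of the epithelial sodium channel of the CNT and CD were lowest of the list, Scnn1a at 11.9 ± 3.69 RPM, Scnn1g at 9.49 ± 2.93 RPM and Scnn1b at 6.36 ± 2.98 RPM. Among drug and anion transporters, the urate exporter gene Abcg2 had 292 ± 35.2 RPM and Slc22a6 (OAT1) 249 ± 53.2 RPM. Slco1a1, an organic anion transporter of the male PT, had 79.5, 143, 62.9, 281, 156 and 169 RPM in mice 1 to 6, 4.46-fold apart between its highest and its lowest mouse. Of the osmolyte genes, the taurine transporter Slc6a6 had 275 ± 79.6 RPM, the inositol transporter Slc5a3 80.8 ± 17.5 RPM and the betaine transporter Slc6a12 1.32 ± 1.49 RPM.

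The gluconeogenesis list of 7 genes summed to 4231 ± 377 RPM, with fructose-bisphosphatase Fbp1 at 1320.2 ± 97.2 RPM. Pck1, the rate-limiting cytosolic enzyme, had 127 ± 26.9 RPM and G6pc 78.5 ± 22.5 RPM. The glycolysis list of 15 genes summed to 3459.6 ± 369 RPM, and within it hexokinase Hk1, the entry to the pathway, stood at 13.6 ± 3.36 RPM. The 17 fatty acid oxidation genes summed to 3750.0 ± 233 RPM, with each of the 17 read in every mouse, and were led by Hadh at 692 ± 103 RPM. The 17 genes of the tricarboxylic acid cycle summed to 3882 ± 138 RPM, and 5 of 17 tested members varied beyond counting noise, against 24.8% of all tested genes. That share depends on abundance, and among tested genes at 100 to 1000 RPM it was 775 of 1204. Glul, glutamine synthetase, had 596, 565, 319, 163, 165 and 290.5 RPM in mice 1 to 6, while Glud1, of ammonia production, was at 119 ± 11.7 RPM. Glul varied beyond the dispersion trend, but not with mice 1 and 2 as a term or in mice 3 to 6 alone.

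Isoform choice was mostly clear. In 41 families of related genes, 1 member held over 90% of the family's reads in 19, and over 50% in 40. In 27 families the leading 2 members had at least 60 reads each, and the order of these 2 passed in 25 (2-sided exact sign-flip permutation test over 6 mice, Benjamini-Hochberg adjusted p at most 0.03375; the smallest raw p that 6 mice allow is 0.03125). Passing meant the same order in each of the 6 mice, for a pair picked by its mean share in those same mice. The 2 families that did not pass were Aqp2 over Aqp3 and Pgam1 over Pgam2, each in that order in 5 of 6 mice.

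For the sodium pump, Atp1b1 made up 97.4% ± 0.517 of the beta subunit reads, with an exact 95% binomial interval of 97.1% to 97.7% on the pooled reads, which covers counting error only. For glucose entry, the low-affinity Slc5a2 (SGLT2) made up 87.7% ± 2.09 and the high-affinity Slc5a1 (SGLT1) 12.3% ± 2.09. In the glucose transporter family, Slc2a2 (GLUT2), of glucose exit, led with 63.6% ± 5.13. Slc2a5 (GLUT5) followed with 19.8% ± 5.27 and Slc2a1 (GLUT1) with 12.3% ± 3.83. Slc34a1 made up 96% ± 0.507 of the phosphate transporter reads, and Slc34a3, another apical transporter, 2.23% ± 0.408.

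Of the metabolic families, Ldhb, the heart-type lactate dehydrogenase subunit, made up 77.7% ± 1.68, ranging over 74.8% to 79.2%, against 22.3% ± 1.68 for Ldha. Pkm made up 93.4% ± 2.19 of the pyruvate kinase reads. In the respiratory chain, Cox4i1, Cox6a1, Cox6b1 and Cox8a each held over 99% of their families, and Cox7a2 94.1% ± 0.566, with the muscle-type Cox7a1 at 5.93% ± 0.566.

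Some families have members known from different cell types. Of the proton pump B subunits, Atp6v1b2, present in many cells, made up 90.8% ± 2.06 and Atp6v1b1, of intercalated cells, 9.18% ± 2.06. Of the a subunits, the kidney-enriched Atp6v0a4 led with 79.2% ± 3.24. Hsd11b1, which activates glucocorticoids, made up 70.9% ± 9.05 and Hsd11b2, which shields the mineralocorticoid receptor in principal cells, 29.1% ± 9.05. Ftl1 led Fth1 in the ferritin family with 64.9% ± 2.54, but with uniquely mapped reads Ftl1 fell behind at 46.8%, the 1 family whose leading member depended on reads that map to several places.

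**Figure D3:**
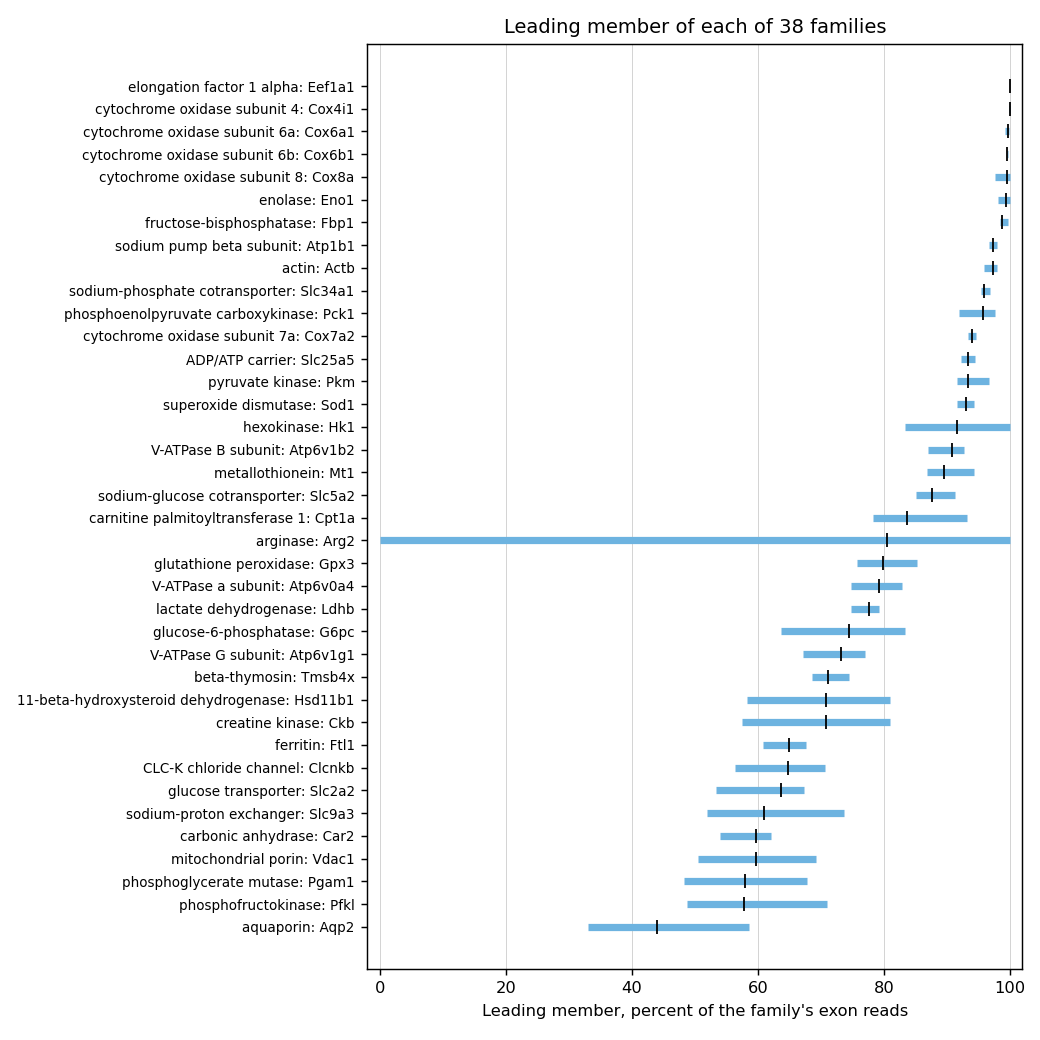
Share of the leading member in 38 of the 41 families, as a percent of the family's exon reads. The black mark is the mean of 6 sham kidneys and the bar runs from the lowest to the highest mouse. Respiratory chain families sit near 100%, the aquaporins have no member over 50% on average, and the arginase bar spans the whole axis, with 24 reads in that family.

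The spread between mice was then set against counting noise. Of 7020 genes with at least 60 reads over the 6 libraries, 1738 (24.8%) varied more than Poisson counting allows (edgeR goodness-of-fit, Benjamini-Hochberg adjusted p under 0.05), and 127 (1.81%) varied more than the spread fitted for genes of their abundance, here called beyond the dispersion trend. The common biological coefficient of variation, edgeR's name for the spread beyond counting noise, was 17.2%. With 1 library per mouse, it cannot tell differences between mice from differences between libraries. With mice 1 and 2 as a term of their own, 778 genes varied beyond counting noise, and 769 did in mice 3 to 6 alone. Beyond the dispersion trend the number was 118 with that term, 94 in mice 3 to 6 alone, 65 without mouse 5 and 79 with the dispersion trend of DESeq2. The share that passed grew with abundance: 117 of 121 tested genes at 1000 RPM or more passed the counting test, 775 of 1204 at 100 to 1000 RPM and 183 of 2227 at 10 to 20 RPM. The 24.8% set beside counts of list members is thus not matched for abundance. The lists were chosen with earlier results of these data known, so such counts are descriptions.

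**Figure D4:**
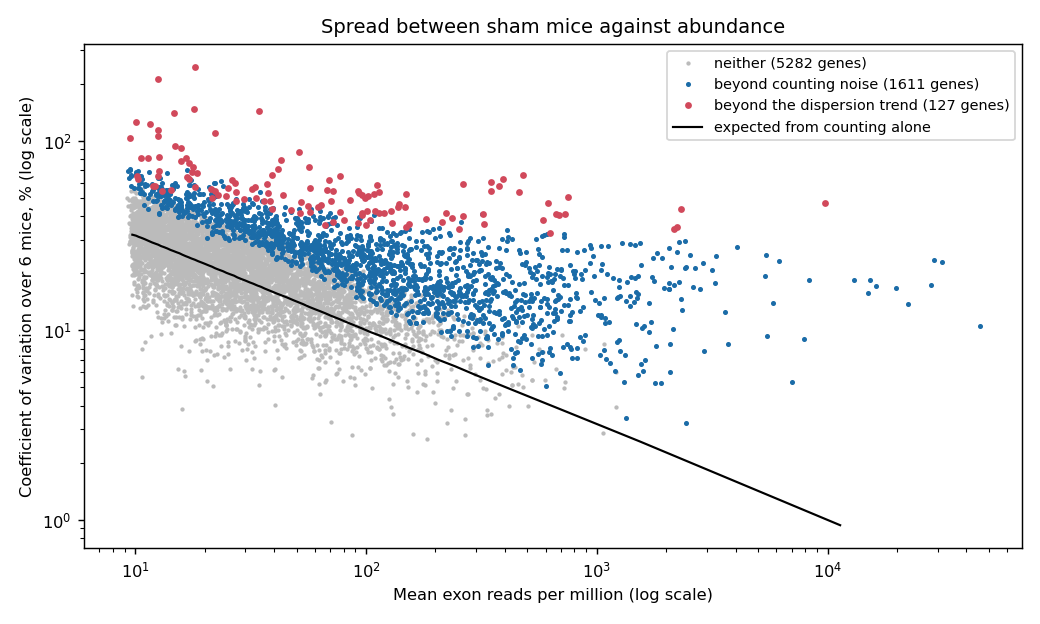
Coefficient of variation over 6 sham kidneys (%, log scale) against mean exon RPM (log scale) for the 7020 tested genes. Grey genes passed neither test, blue genes varied beyond counting noise, the 127 red genes beyond the dispersion trend, and the line is the coefficient of variation that counting alone gives.

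Abundant genes that did not pass the counting test included housekeeping and PT genes. The 10 highest were Ass1, Atp5o_1, Itm2b, Hist1h2bc, Cox6a1, Ndufv3, Canx, Eif1, Park7 and Bsg. Ass1, argininosuccinate synthetase of renal arginine synthesis, had 1241, 1284, 1304, 1127, 1194 and 1144 RPM in mice 1 to 6. Canx, an endoplasmic reticulum chaperone, had 714, 781, 705, 679, 743 and 708 RPM in mice 1 to 6. The highest mouse was 1.16-fold above the lowest for Ass1 and 1.15-fold for Canx. Of the reads of Atp5o_1, 0.0135% mapped to a single place, so that gene is uncertain.

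Of the 127 genes beyond the dispersion trend, 29 had under 90% of their reads mapped to a single place, which was 8.55% of the 339 tested genes of that kind, against 98, or 1.47%, of the other 6681. They included small RNA genes and near-identical copies. Ugt1a10, a glucuronosyltransferase that shares its 3′ end with neighbouring Ugt1a genes, had 108.6 RPM in mouse 3 and none in the other 5, Rn7sk, the 7SK RNA, 3.97, 8.36, 16.4, 27.2, 16.4 and 133 RPM in mice 1 to 6, and Rpl10 38.7, 12.9, 54.3, 13.6, 135 and 53.9 RPM in mice 1 to 6. Rn7sk was not called without mouse 6 (edgeR adjusted p = 0.12), and Ugt1a10 had no read without mouse 3. For these the counts of 1 gene and its copies cannot be told apart.

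Among the 98 genes with at least 90% uniquely mapped reads, 66 (67.3%) were lower in both mice 4 and 5 than in each of the other 4, a pattern that 785 (11.2%) of all tested genes had. It was noticed in the data and is given as a description. Pcca, the alpha subunit of propionyl-CoA carboxylase, had 583, 469, 383, 178, 61.1 and 593 RPM in mice 1 to 6 (edgeR adjusted p = 4.81e-13), and it overlaps Ggact. Plau, the urokinase made by tubule cells, had 958, 589, 336, 195, 133 and 659 RPM in mice 1 to 6 (edgeR adjusted p = 9.58e-12). Myh9, nonmuscle myosin heavy chain, had 445, 404, 187, 109, 86.2 and 355 RPM in mice 1 to 6 (edgeR adjusted p = 1.84e-09). In each, mice 1, 2 and 6 were the 3 highest and mouse 5 the lowest. Cat, the peroxisomal catalase, had 1005, 872, 745, 376, 311 and 788 RPM in mice 1 to 6 (edgeR adjusted p = 0.00298). It was the 1 antioxidant gene of 13 tested beyond the trend, against 1.81% of all tested genes. Of the 13, 10 varied beyond counting noise, against 24.8% of all tested genes. That last share is not matched for abundance, and was 775 of 1204 at 100 to 1000 RPM and 117 of 121 at 1000 RPM or more. Hnrnpl, an RNA-binding splicing factor, Tsku, Iqsec1, Pam, Cdkn1b and Aqp3 were also lowest in mice 4 and 5. Of the 66 genes, 53 were called with mice 1 and 2 as a term, 52 in mice 3 to 6 alone, 54 without mouse 4 and 16 without mouse 5. Pcca, Plau and Myh9 were among the 16, and Cat (edgeR adjusted p = 0.25) and Aqp3 (edgeR adjusted p = 0.92) were not. Mice 4 and 5 also had the highest share of mitochondrial ribosomal RNA, 51.7% and 52.7%, against 36.6% to 45.9% in the other 4, and its part in the pattern was not tested. The median exon length of the 66 genes was 4313 bases and that of all tested genes 4171.

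Mice 1 and 2 stood apart in a set that partly overlapped the previous one. Of the same 98 genes, 42 (42.9%) had mice 1 and 2 above the other 4, and 7 had them below. Since 66 of the 98 were in the previous set, some genes had both patterns, among them Myh9 and Cat. Malat1, a nuclear long noncoding RNA, had 3747, 3496, 1788, 1666, 1873 and 1389.7 RPM in mice 1 to 6, and Klhl3, an adaptor that limits the kinases activating NCC, had 109, 82.9, 37.1, 33.4, 49.1 and 30.8 RPM in mice 1 to 6. Lars2, mitochondrial leucyl-tRNA synthetase, ran the other way with 118, 85.2, 363, 614, 642 and 534 RPM in mice 1 to 6 (edgeR adjusted p = 5.83e-16), and so did Npm3 with 44.7, 36.5, 108, 139.8, 109 and 158 RPM in mice 1 to 6. Mice 1 and 2 did not overlap with mice 3 to 6 in any of these 4 genes, which are grouped here for that pattern. Of all 7020 tested genes, 17.3% had mice 1 and 2 above the other 4 and 11.9% had them below. None of the 4 genes was called with mice 1 and 2 as a term. Hbb-bs, adult beta globin, was also lowest in these 2 mice with 1175, 1405, 2258, 2825, 3070.3 and 2690.3 RPM in mice 1 to 6. Without mouse 1, Malat1, Klhl3 and Hbb-bs were not called (edgeR adjusted p of 0.21, 0.23 and 0.33), Malat1 also not without any 1 of mice 2, 3 and 6, and Hbb-bs also not without mouse 2.

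Mouse 4 was highest for a further group. Odc1, ornithine decarboxylase of polyamine synthesis, had 169, 218, 196, 452, 225 and 321 RPM in mice 1 to 6 (edgeR adjusted p = 0.0206). Cndp2, a dipeptidase, had 351, 508, 378, 941, 621 and 699.8 RPM in mice 1 to 6 and Acsm3, a medium-chain acyl-CoA synthetase, 189.8, 246, 134, 379, 253 and 316 RPM in mice 1 to 6. Akr1c18, a hydroxysteroid dehydrogenase, had 49.7, 72.2, 33.6, 109, 80.8 and 84.7 RPM in mice 1 to 6. Slco1a1 and Odc1 are known as androgen-responsive in the mouse kidney, and these 2 were beyond the trend of 6 such genes tested, against 1.81% of all tested genes, whereas Kap, the most abundant, was highest in mouse 6. That list was chosen with earlier results of these data known, so the count is a description only. Mouse 4 also had the highest Thrsp, a lipogenesis gene, with 4.97, 9.88, 6.89, 56.9, 5.46 and 4.4 RPM in mice 1 to 6, and the highest fat markers, whose list summed to 2.98, 1.52, 2.58, 23.5, 1.09 and 1.1 RPM in mice 1 to 6. Odc1, Cndp2 and Akr1c18 were not called without any 1 of mice 1, 3 and 4, and Acsm3 without any 1 of mice 3, 4 and 6. Thrsp had too few reads to be tested without mouse 4. The part of fat tissue in mouse 4 was not tested, and Adipoq was at 0 to 1.24 RPM over the 6 mice.

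Single genes were high in 1 mouse. Trp53, the p53 tumour suppressor, had 8.94, 5.32, 71.5, 11.1, 2.18 and 8.8 RPM in mice 1 to 6 (edgeR adjusted p = 3.26e-13), with 98.3% of its reads uniquely mapped. Atxn7l2 had 3.97, 66.9, 3.45, 0, 1.09 and 0 RPM in mice 1 to 6 (edgeR adjusted p = 5.83e-23). In the other 5 mice Trp53 reached at most 11.1 RPM and Atxn7l2 at most 3.97 RPM, and without the mouse that was high neither had enough reads to be tested.

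**Figure D5:**
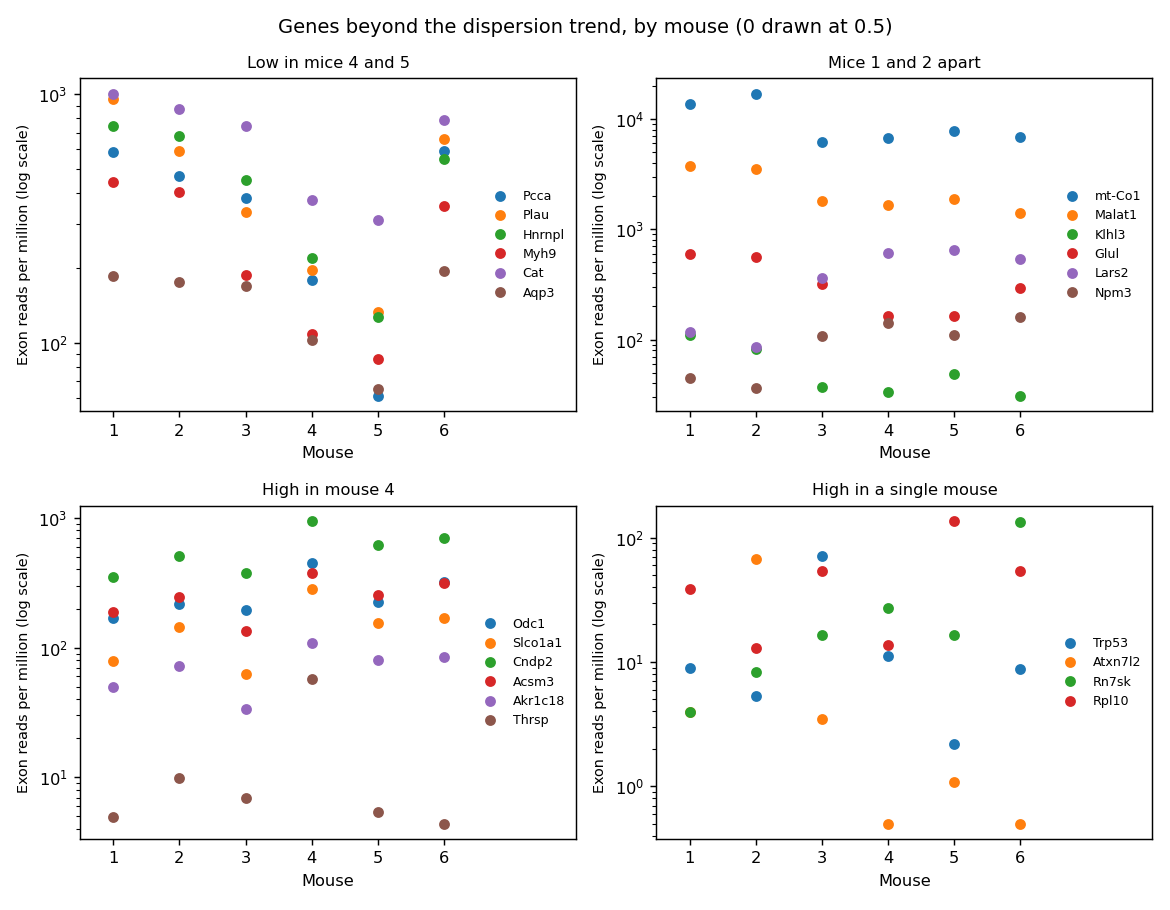
Exon RPM (log scale) by mouse for genes beyond the dispersion trend, grouped by which mice are high or low, with a value of 0 drawn at 0.5. Mice 4 and 5 are the lowest in the first panel, mice 1 and 2 lie apart in the second, mouse 4 is highest in the third, and 1 mouse leads each gene of the fourth.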

How the data were processed

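Kidney RNA of 6 sham mice was measured with the QIAseq UPX 3′ kit, which tags each RNA molecule. The deposited counts are raw whole numbers, 1 per molecule tag, of reads over the exons of each gene. The authors made them in CLC Genomics Workbench from reads demultiplexed with bcl2fastq and mapped to GRCm38. Deposited columns for uniquely mapped, intron and junction reads were used as checks. A 3′ read stands for 1 molecule, so levels were not divided by gene length.

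The spread between mice was tested with the goodness-of-fit test of edgeR 4.0.16 in R 4.3.3 on TMM-scaled counts of genes with at least 60 reads over the 6 libraries, against Poisson counting and against the trended dispersion, with Benjamini-Hochberg adjustment at 0.05. RPM in the text are not TMM-scaled. The script was tested on simulated data. Families were compared with sign-flip permutations, after adding 0.5 reads to each member. DESeq2 1.42.0 supplied alternatives. The p-values measure the spread between these 6 samples. Depth per library, and the precision it gives, stand in the report.

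The gene lists and families were written by hand, and the members and lists were chosen with earlier results of these data known. Named genes are the 30 highest, up to 20 beyond the trend by smallest p, the 10 highest not beyond counting noise, members of lists and families, and others marked as noticed in the data. Dbp was taken out of the vitamin D list, where it had been entered in error, after the lists were written. A few genes of the lists and families are not reported here.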

Additional observations from a re-analysis of the deposited data

Results flagged for a closer look

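In 121 measures over the 6 sham kidneys (9 of the libraries, 52 lists and 60 genes), 11 had 1 mouse further from the rest than Dixon's 95% limit for 6 samples, which chance passes in about 1 of 20 groups. None of the 9 library measures was among them. The genes tested here include those named for their spread, so that a lone mouse was part of how some were chosen.

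Of the 2 lists, the adipocyte list summed to 23.5 RPM in mouse 4, against 1.09 to 2.98 RPM in the other 5, and the type B intercalated cell list to 34.2 RPM in mouse 2, against 13.2 to 20.9 RPM. Of abundant genes, mt-Co2 had 19441 RPM in mouse 1, against 12544 to 15014 RPM, and Gpx1 had 7372 RPM in mouse 2, against 4578 to 5233 RPM. Bsg, the basigin gene, had 663 RPM in mouse 4, against 576 to 594 RPM, but it did not vary beyond counting noise.

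Of the genes named for their spread, Ugt1a10 had 108.6 RPM in mouse 3 and no read elsewhere. Rn7sk had 133 RPM in mouse 6, against 3.97 to 27.2 RPM. Rpl10 had 135 RPM in mouse 5, against 12.9 to 54.3 RPM. These 3 genes had few uniquely mapped reads. Atxn7l2 had 66.9 RPM in mouse 2, against 0 to 3.97 RPM, Trp53 had 71.5 RPM in mouse 3, against 2.18 to 11.1 RPM, and Thrsp had 56.9 RPM in mouse 4, against 4.40 to 9.88 RPM.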

How the results depend on the processing

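The number of genes beyond counting noise was 1738, stayed at 1414 to 1785 under the other scalings, filters, read types and tests planned, and ran from 1429 to 1601 when 1 mouse was left out. It was 769 in mice 3 to 6 alone and 778 with mice 1 and 2 as a term, both chosen after seeing the data. Of these, 745 and 778 were among the 1738. The number beyond the dispersion trend was 127 and ran from 65 to 117 when 1 mouse was left out, the 65 being without mouse 5, of which 63 were among the 127. It was 79 with the dispersion trend of DESeq2, 94 in mice 3 to 6 alone and 118 with mice 1 and 2 as a term. The cause of these changes was not tested. The common biological coefficient of variation was 0.172, and 0.127 to 0.180 over its alternatives, lowest with mice 1 and 2 as a term. Of the 100 highest genes, 74 stayed among the 100 highest after division by exon length, 89 with uniquely mapped reads and at least 96 under the other alternatives. The isoform order passed in 25 families, in 23 with uniquely mapped reads and in 31 with a minimum of 30 reads. With uniquely mapped reads, 3 of 52 list sums and 4 of 41 leading shares moved by more than 1 SD. The red cell sum fell from 6983 to 3601 RPM. The sodium transport and tricarboxylic acid cycle sums rose, from 10486 to 10966 and from 3882 to 4060 RPM, over a smaller total. With mitochondrially encoded genes left out of the total, 40 of 51 list sums moved by more than 1 SD. That smaller total raises every such sum, so the count reflects the rescaling and is no check on the lists. Leaving out 1 mouse could not move the mean of a list sum or share by more than 1 SD, because the SD came from the same 6 mice. It was therefore no check on a single mouse. No paired analysis was possible because only the sham group was analysed. Depth limits genes under about 10 RPM, which were not tested for spread.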

Other observations

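Of the clock genes, Dbp had 105, 103, 65.5, 34.6, 57.8 and 50.6 RPM in mice 1 to 6 and Hlf 52.9 ± 13.1 RPM, while Arntl (BMAL1) had 0.921 ± 0.914 RPM and Cry1 0.436 ± 0.483 RPM. Dbp was highest in mice 1 and 2 and lowest in mouse 4. It was the 1 of 8 tested clock genes that varied beyond counting noise, against 24.8% of all tested genes, a share not matched for abundance. Of glucocorticoid-responsive genes, Klf9 had 148 ± 36.4 RPM, Fkbp5 28.9 ± 9.5 RPM and Sgk1, a kinase that raises sodium uptake, 29.8 ± 10.7 RPM. The immediate early genes Fos and Nr4a1 were at 0 to 3.71 RPM and Fosb had no read, whereas Dusp1 had 39.2 ± 12.7 RPM and Junb 26.4 ± 4.03 RPM. Interferon-responsive genes summed to 58.5 to 86.4 RPM.

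Of antigen presentation genes, Cd74, the invariant chain, had 178 ± 49.6 RPM and H2-Aa 42.8 ± 10.4 RPM. Of chaperones, Hspa8 had 765 ± 62.8 RPM and the stress-induced Hspa1a 10.1 ± 4.7 RPM. Cholesterol synthesis genes summed to 946 ± 33.7 RPM. Of 9 tested members, 4 varied beyond counting noise, against 24.8% of all tested genes, a share not matched for abundance. Mt1, a metallothionein, had 414, 435, 319.7, 296, 276 and 322 RPM in mice 1 to 6, with mice 1 and 2 above the other 4. Of the vitamin D genes, Vdr, the receptor, had 54.3 ± 10.6 RPM, Cyp24a1, which degrades the hormone, 9.5 ± 4.3 RPM and Cyp27b1, which makes it, 3.23 ± 1.68 RPM.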
